A study of Mus musculus with 4 samples.

Results

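The 49 genes described here encode ligands, receptors, Smad proteins, Smurf ubiquitin ligases, extracellular antagonists, the protease Bmp1 and Id targets of the BMP and TGF-beta pathway. They were chosen by name as known parts of the pathway, and a peak was counted for a gene when the deposited list of Zeb1 peaks assigned it to that gene symbol. By this rule 41 of the 49 genes had at least 1 assigned peak, where 53.3% of the 21000 protein-coding genes of the reference had one, and together they held 65 of the 17435 peaks in the list. Every member was found in the reference annotation under the symbol used here.

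Zeb1 ChIP-seq was performed in mESC of the D3 line, an established mouse embryonic stem cell line, in ground-state medium (GS), at passages 5 to 8. GS was a serum-free medium with 1 μM of PD0325901, which inhibits MEK, 3 μM of CHIR99021, which inhibits GSK-3, and 20 ng/mL of the cytokine LIF. Chromatin was fixed with 1% formaldehyde and sheared to fragments of about 200 bp, and 8 μg of an antibody to Zeb1 were used for precipitation. The labels gave 3 Zeb1 ChIP libraries and 1 input library, planned at a minimum of 20 M raw reads each. Each peak carried 1 average of treatment reads, 1 average of input reads and 1 average enrichment, with no value for a library. The values of a peak therefore have no SD and no test, and the mapped reads of each library could not be read from the list, since reads in peaks are not a depth. Enrichment was the treatment over input ratio after scaling for mapped reads, and its median was 2.07 times the plain ratio of the listed reads, so that equal read numbers correspond to an enrichment near that value.

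BMP, GDF, activin, Nodal and TGF-beta ligands are secreted dimers that bring together type I and type II receptors, which are kinases at the cell surface. BMP receptors phosphorylate Smad1, Smad5 and Smad9, whereas activin and TGF-beta receptors phosphorylate Smad2 and Smad3, and both groups enter the nucleus with Smad4. In mESC, BMP signals acting together with LIF are known to sustain self-renewal through the Id genes, and Zeb1, a zinc finger protein that binds E-boxes, is known to interact with receptor-activated Smads.

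Within 5 kb of the TSS, the distance taken for a promoter, 40 of the 49 members had a peak, against 45.1% of all protein-coding genes. Within 1 kb the count was 33, against 41.1%. Of the 65 member peaks, 42 lay within 5 kb, or 64.6%, close to the 61.4% of all peaks, and 23 lay beyond it. Members with 2 or more assigned peaks numbered 16, against 14.1% of all genes, and 25 members had a lone peak. The 9 members without a promoter peak were 3 ligands, 1 type I receptor, 2 receptor-activated Smads, 2 Smurfs and 1 Id gene.

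**Figure D1:**
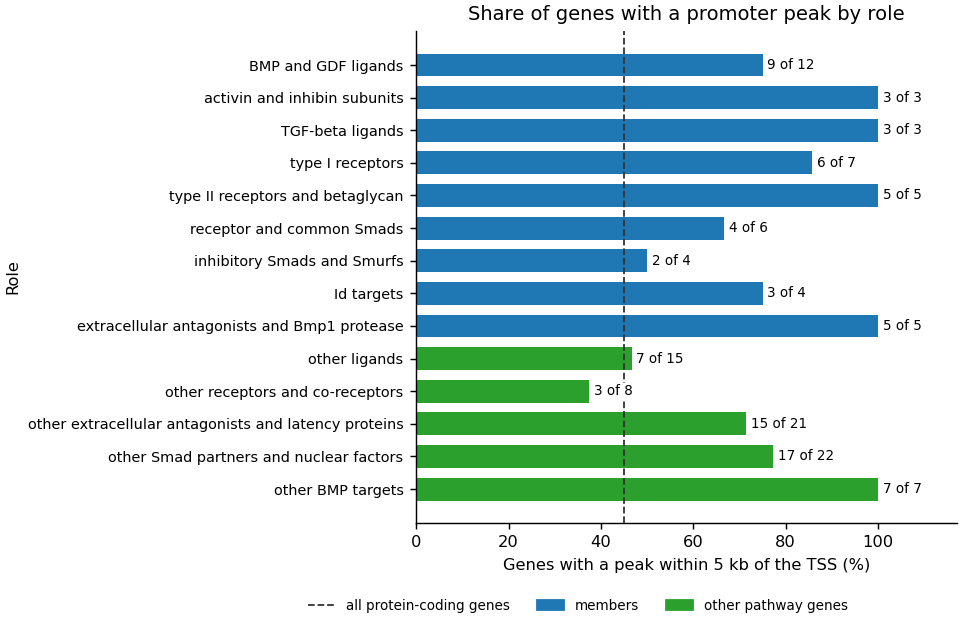
Share of genes (%) whose TSS had a peak within 5 kb, for the roles of the 49 members (blue) and of the 73 other pathway genes (green), with the counts beside the bars; the dashed line is the share over all protein-coding genes, 45.1%. All 3 activin and inhibin subunits, all 3 TGF-beta ligands, all 5 type II receptors with betaglycan and all 5 genes of the extracellular antagonists and Bmp1 had a promoter peak, and 2 of 4 inhibitory Smads and Smurfs did.

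The best promoter peak of a member, meaning that of highest enrichment within 5 kb, had a median enrichment of 7.69 over the 40 members with such a peak. Over all 9465 protein-coding genes with a promoter peak the median was 6.84, with quartiles of 5.44 and 8.66. In treatment reads per kb of peak in place of enrichment the direction turned, with a median of 27.1 for members and 27.4 for all genes, and with peaks within 1 kb the enrichment medians were 7.06 and 6.76. Of the 40 members, 25 were above that median, 14 above the upper quartile and 5 below the lower quartile. An enrichment of 10 or more was reached at the promoter of 9 members, against 6.38% of all genes. These were Tgfb3, Bmpr2, Tgfbr2, Bmp6, Inhba, Tgfb1, Bmp7, Grem1 and Gdf5, of which 7 encode ligands or ligand antagonists and 2 encode type II receptors.

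**Figure D2:**
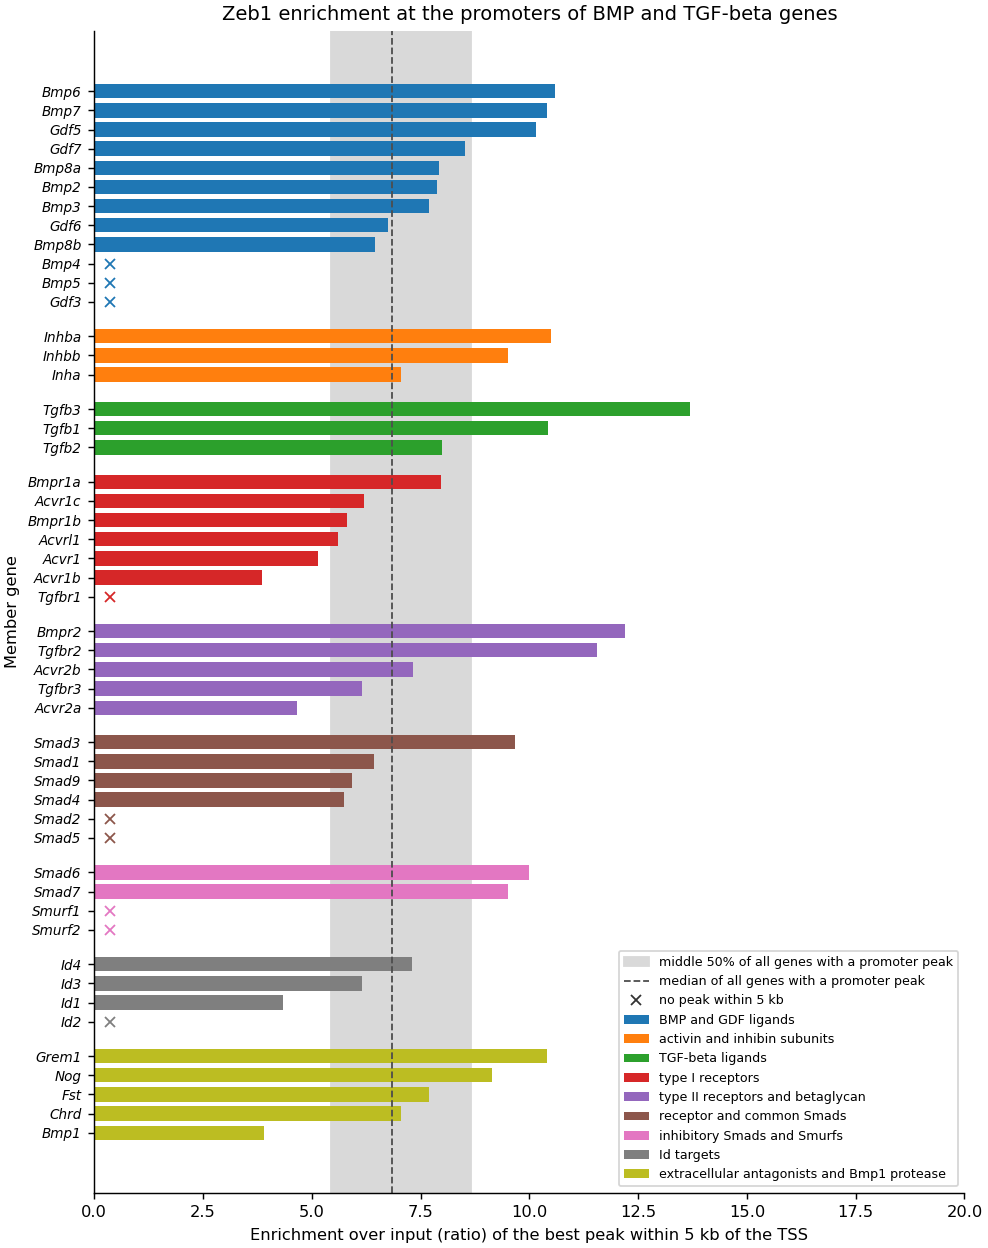
Enrichment over input (ratio) of the best peak within 5 kb of the TSS for each member, grouped and coloured by role; crosses mark the 9 members with no such peak. The grey band and the dashed line give the quartiles (5.44 and 8.66) and the median (6.84) over all genes with a promoter peak. Tgfb3 had the highest value, 13.7, and 5 of the 6 type I receptors with a peak were below the median of all genes.

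The sequence of the peaks was searched for the Zeb1 motif, spelled CNCACCTG, CNTACCTG, TNCACCTG or TNTACCTG on either strand. The match nearest to the peak centre is shown for members at both ends of the enrichment range and for the Id genes, so that the letters can be set beside the values that follow. Capitals mark the 8 bases of the motif, with 11 bases on either side, read 5´ to 3´ on the strand that carries the match, from GRCm38.p6, the mm10 assembly. The match of Tgfbr2, chr9:116174592-116174599, was in intron 1 of 6, and that of Bmp6, chr13:38345663-38345670, was upstream of the gene at -50 bp from the TSS. The match of Tgfb1, chr7:25687959-25687966, was in coding exon 1 of 7, and that of Acvr1b, chr15:101173585-101173592, was upstream at -484 bp. The match of Acvr2a, chr2:48814824-48814831, was in intron 1 of 10. In the Id genes the matches were in coding exon 1 of 2 of Id1, chr2:152736500-152736507, in intron 1 of 2 of Id3, chr4:136144176-136144183, and in intron 2 of 2 of Id4, chr13:48262345-48262352.
Tgfbr2: cccagctgctgCACACCTGggccgcttact
Bmp6: cctgcctaggaCACACCTGgctcactcagc
Tgfb1: ccgcgggactcTCCACCTGcaagaccatcg
Acvr1b: cccaaaatggtTCTACCTGgccagcaccct
Acvr2a: cggctcctccaCCTACCTGaagagcaagag
Id1: agagcaggacgTTCACCTGctgctcgtcca
Id3: tggctccctctCGCACCTGgatcgggagat
Id4: ggacctgagcgCTCACCTGgccatccatcg

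A match to these letters is a description of the sequence and does not show which base was bound. The motif was present in 44 of the 65 member peaks, or 67.7% (95% Wilson interval 55.6 to 77.8%, counting error only), against 76.8% of all peaks. The interval takes peaks of the same gene as independent and is not a test. Longer peaks hold the motif more often, so the share was also read by length. Among the longest peaks of the list, of 2400 bp or more, 17 of 21 member peaks had it, against 90.6% of all peaks of that length. Among the shortest, up to 1500 bp, 9 of 15 member peaks had it, against 65.3%. Between these, 8 of 13 member peaks of 1550 to 1850 bp had it, against 72.7%. Of those of 1900 to 2350 bp, 10 of 16 had it, against 80.2%. Among the best promoter peaks of the 40 members, 30 had the motif, a share close to the 76.6% of the best promoter peaks of all genes. The 10 without it were the peaks of Bmp2, Gdf6, Tgfb3, Bmpr1b, Bmpr2, Tgfbr3, Smad1, Smad7, Nog and Bmp1, which include both of the highest enrichments, Tgfb3 and Bmpr2. In the 1 kb window centred on the TSS, 21 of 49 members held a match, against 55.6% of all genes.

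RefSeq promoter sequences, the 250 bases before the start on the gene's own strand, were found for 33 of the 49 members in GRCm38.p6. The 3 shown are Bmpr2, with a high enrichment and no Zeb1 motif, Bmp6, with a high enrichment and a motif, and Bmp4, with a motif and no assigned peak. Capitals mark the Zeb1 motif in Bmp6 and Bmp4 and the letters GGCGCC, a sequence known from BMP response elements, in Bmpr2. Over all 32851 promoters of the table, 14.3% held the Zeb1 motif and 9.59% held GGCGCC in these 250 bases. The stretches are chr1:59764029-59764278 on the plus strand (Bmpr2), chr13:38345466-38345715 on the plus strand (Bmp6) and chr14:46390670-46390919 on the minus strand (Bmp4). They hold 22, 22 and 11 CpG dinucleotides in that order, where the median promoter of the table holds 6.
Bmpr2: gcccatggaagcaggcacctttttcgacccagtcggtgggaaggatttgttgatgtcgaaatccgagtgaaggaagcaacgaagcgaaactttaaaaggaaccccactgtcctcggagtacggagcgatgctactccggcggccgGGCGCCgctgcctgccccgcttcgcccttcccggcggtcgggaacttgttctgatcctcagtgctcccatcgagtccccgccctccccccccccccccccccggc
Bmp6: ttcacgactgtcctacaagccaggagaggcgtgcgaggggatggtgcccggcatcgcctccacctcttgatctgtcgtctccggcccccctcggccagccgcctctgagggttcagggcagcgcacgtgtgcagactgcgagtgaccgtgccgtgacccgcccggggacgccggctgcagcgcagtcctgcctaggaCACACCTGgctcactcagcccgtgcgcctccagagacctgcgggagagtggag
Bmp4: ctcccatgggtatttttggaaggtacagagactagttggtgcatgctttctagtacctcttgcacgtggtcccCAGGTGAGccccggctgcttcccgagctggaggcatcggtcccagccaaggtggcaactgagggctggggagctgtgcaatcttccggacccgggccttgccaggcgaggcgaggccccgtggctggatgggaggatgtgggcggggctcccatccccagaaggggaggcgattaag

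Among the ligands, 15 of 18 genes had a promoter peak. The highest median enrichment by role was that of the 3 TGF-beta isoforms, 10.4, although Tgfb2 was below 6 of the other ligand genes. In treatment reads per kb of the best peak, these isoforms had a median of 31.4. The type II receptors with betaglycan (37.3) and the inhibitory Smads and Smurfs (32.3) were higher on that scale. Tgfb3, which encodes the isoform known for its part in palate fusion, had the highest promoter enrichment of all members, 13.7. Its peak, chr12:86078751-86080150, had 44 treatment reads and 7 input reads, and its centre lay 409 bp before the TSS. At 1400 bp it was also the shortest promoter peak of the members, and its value was above that of 97.0% of genes with a promoter peak. Because its input reads were so few, a change of a few reads would move this ratio more than that of a deeper peak. Tgfb1, the isoform best known in immune regulation, had instead the most reads of any member peak. Its peak, chr7:25685401-25690000, held 156 treatment reads over 31.6 input reads, for an enrichment of 10.4, with its centre 698 bp downstream of the TSS in the 5´ UTR of exon 1. Tgfb2, which acts in heart and eye development, was the lowest of the 3, with an enrichment of 7.99. Its promoter peak, chr1:186704101-186706250, had 45.4 treatment reads and 12.3 input reads at 817 bp downstream, in exon 1 (5´ UTR), and a weaker peak lay 15.3 kb upstream.

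The activin and inhibin subunits, which pair as activins or as their inhibin antagonists, each had a promoter peak. Inhba, the activin A subunit, had an enrichment of 10.5 with 48 treatment reads and 8.5 input reads at chr13:16011201-16012950. The list placed this peak 2400 bp upstream of a TSS, while the start in the reference used here lay inside the peak, 224 bp from its centre. Inhbb, the activin B subunit, had the third highest number of reads, 143 treatment reads and 32.6 input reads, at chr1:119419001-119423400. Its enrichment was 9.5, and its centre was 1048 bp downstream in the 5´ UTR of exon 1. Inha, the inhibin alpha subunit, had the lowest value of the 3, 7.05, with 40 treatment reads and 11 input reads at chr1:75508951-75510550, over coding exon 2 of 2 and 2673 bp downstream. A stronger peak in reads, with 86.4 treatment reads, lay closer to the start of Inha, 1852 bp from it, but was assigned to its neighbour Obsl1.

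Of the 12 BMP and GDF ligand genes, 9 had a promoter peak, with a median enrichment of 7.91. Bmp6, a ligand known for control of iron balance, had the highest, 10.6, with 128 treatment reads and 24.3 input reads at chr13:38344451-38347300, 159 bp downstream in the 5´ UTR. Bmp8b, a close relative of Bmp8a that acts in germ cell formation, had the lowest, 6.46, with 94.4 treatment reads and 29.4 input reads at chr4:123104101-123106950, 360 bp downstream in coding exon 1 of 7. These 2 peaks had the same length, 2850 bp. Between them were Bmp7 (10.4), Gdf5 (10.1), Gdf7 (8.52), Bmp8a (7.91), Bmp2 (7.88), Bmp3 (7.7) and Gdf6 (6.74). The peak of Gdf5, a joint patterning ligand, lay 3314 bp downstream of the TSS over coding exon 2 of 2, so that Gdf5 had none within 1 kb. Gdf7 had 2 promoter peaks, which together covered 90.1% of its gene. The peak of 8.52 lay 3054 bp downstream over coding exon 2 of 2, and the peak at the TSS, centred 79 bp downstream, had 6.65.

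Bmp7, which acts in kidney and eye development, shared the highest number of assigned peaks, 4, with Inhba. Its promoter peak, chr2:172936951-172941250, had 118 treatment reads and 21.8 input reads and was centred 1221 bp downstream in intron 1 of 6. The 3 others were 15.3 kb downstream in the same intron, and 77.7 and 87.7 kb downstream of the TSS, beyond the end of the gene. Their enrichments were lower than that at the promoter, at 4.5, 5.03 and 6.4. Gdf6, which acts in skeletal and eye patterning, had 3 peaks, and the highest was not at the promoter. The peak over its coding exon 2 of 2, 15.5 kb downstream, reached 8.55, against 6.74 at the promoter and 3.45 at 30.3 kb.

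Bmp4, Bmp5 and Gdf3 were the ligands with no assigned peak. Bmp4, the ligand commonly added to mESC cultures with LIF, had its nearest peak of the list 369.9 kb away, assigned to Cdkn3. Bmp5 had it 149.6 kb away, assigned to Lysmd2. Gdf3, a ligand expressed in pluripotent cells, had it 85.9 kb away at Nanog, with an enrichment of 4.35. Having no row means only that no listed peak was assigned to that symbol, and the list gives no read number for such a gene.

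Over the 6 type I receptors with a promoter peak the median enrichment was 5.7, and over the 5 type II receptors with betaglycan it was 7.31, where all genes with a promoter peak had 6.84. The 4 type II receptors without betaglycan had a median of 9.44. Values of the receptor types overlapped, and Acvr2a, a type II receptor, was below 5 of the 6 type I receptors. Per kb of the best promoter peak, the median treatment reads were 21.0 for the type I receptors. They were 37.3 for the type II receptors with betaglycan and 36.5 without it, where all genes with a promoter peak had 27.4. Bmpr1a, a BMP type I receptor required for gastrulation, was the highest of its role, 7.96, with 58.2 treatment reads and 16.2 input reads at chr14:34501451-34503800, 79 bp upstream. Acvr1b, the main activin and Nodal type I receptor, was the lowest of all members, 3.86. Its peak, chr15:101173051-101175050, had 38.9 treatment reads and 23 input reads, 75 bp upstream, and 4.56% of genes with a promoter peak had a lower value. Acvr1c (6.2), Bmpr1b (5.8), Acvrl1 (5.6) and Acvr1 (5.15) were between them. Tgfbr1, the TGF-beta type I receptor, had no assigned peak, and the nearest lay 88.2 kb away at Alg2.

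Bmpr2, the BMP type II receptor, had the second highest promoter enrichment of the members, 12.2, with 94.9 treatment reads and 15.7 input reads at chr1:59762151-59765300, 554 bp upstream. Tgfbr2, the TGF-beta type II receptor, followed with 11.6 from 94.6 treatment reads and 16 input reads at chr9:116173801-116176000, 463 bp downstream in intron 1 of 6. Their read numbers were nearly equal, and these peaks were above 94.6 and 92.9% of genes with a promoter peak. The TGF-beta receptor pair thus had its type II partner among the 4 highest promoters and its type I partner, Tgfbr1, without a peak. The activin type II receptors were lower, with 7.31 for Acvr2b and 4.65 for Acvr2a. The Acvr2a promoter peak, chr2:48813201-48815450, had 40 treatment reads and 16.5 input reads, 216 bp downstream in the 5´ UTR. Tgfbr3, betaglycan, a co-receptor that presents TGF-beta to the receptors, had 6.14.

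Of the receptor-activated Smads, 3 of 5 had a promoter peak. Smad3, which carries activin and TGF-beta signals, had the highest value, 9.67, with 84 treatment reads and 17.7 input reads at chr9:63756501-63759850, 181 bp upstream. The BMP-activated Smad1 and Smad9 had 6.42 and 5.91. Smad4, the partner common to both branches, had the lowest value, 5.75, with 37.5 treatment reads and 14.5 input reads at chr18:73702651-73704600, 116 bp downstream in the 5´ UTR, and this peak also covered the TSS of the non-coding gene 4930578L24Rik. Smad2, the other carrier of activin and TGF-beta signals, had no assigned peak, and the nearest was 95.7 kb away. Smad5 was the member with peaks only far from its TSS. Its nearest, 10.1 kb downstream in intron 1 of 6, lay on an IAPEz element, an endogenous retrovirus, and had 31 treatment and 31 input reads with an enrichment of 2.15. The other, chr13:56752101-56755400, had 97.9 treatment reads and 20.6 input reads with an enrichment of 10.6, 50.1 kb downstream of the TSS and 11.4 kb past the end of the gene, over the TSS of the gene Gm45623.

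The inhibitory Smads and the Smurf ubiquitin ligases, which act together to turn receptors over, were divided. Smad6, which preferentially inhibits BMP signals, had 153 treatment reads and 30.4 input reads at chr9:64019251-64023650, an enrichment of 9.99, 609 bp downstream in the 5´ UTR. Smad7, which inhibits both branches, had 120.5 treatment reads and 26.2 input reads at chr18:75365801-75369850, an enrichment of 9.51, 460 bp downstream in the 5´ UTR, and this peak also covered the TSS of Gm20544. Each of these genes had 3 peaks, and in each the highest enrichment was far from the TSS. For Smad6 it was 11.6, over coding exon 4 of 4 at the end of the gene, 68.4 kb from the TSS, and for Smad7 it was 11.8, at 67.5 kb, in the 3´ UTR of another gene by the list. Smurf1 and Smurf2 had no assigned peak. A peak with an enrichment of 9.6 lay inside Smurf1, over its 3´ UTR in exon 18 of 18 and 86.9 kb from its start, and was assigned to Mir7039, and for Smurf2 the nearest peak was 78.5 kb away at Kpna2.

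The Id genes encode helix-loop-helix proteins without a DNA-binding domain and are direct targets of BMP-activated Smads. Id1 had a promoter enrichment of 4.34, among the 4 lowest of the members, with 58.6 treatment reads and 26 input reads at chr2:152734451-152737350, centred 351 bp upstream. This peak of 2900 bp reached over 94.8% of the short Id1 gene. Id3 had 6.16, with 67.1 treatment reads and 21.9 input reads at chr4:136143151-136145600, centred 553 bp downstream, and this peak covered the whole gene. A further Id3 peak of enrichment 5.87, with 33.4 treatment reads and 12.1 input reads, lay at chr4:136147351-136149100, 4403 bp downstream of the TSS and on a simple repeat. Id4 had 7.3, with 74.8 treatment reads and 21.4 input reads at chr13:48260551-48263300, 498 bp downstream in coding exon 1 of 3, and a weaker peak of 6.6 lay 33.5 kb upstream. Id2 had no assigned peak, and the nearest of the list was 121 kb away at Kidins220. The letters GGCGCC were in 37 of 65 member peaks, against 53.0% of all peaks. They were found at 1 place in the Id1 peak, at 5 and 4 places in the Id3 peaks and at 4 places in the Id4 promoter peak. The palindrome GTCTAGAC, known as a Smad-binding sequence, was in 2 of 65 member peaks, those at the promoters of Smad6 and Smad7, against 1.63% of all peaks. These 2 peaks were long, 4400 and 4050 bp, where the median peak of the list had 1850 bp. The shares with GGCGCC and GTCTAGAC were not read by peak length.

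The 4 extracellular antagonists and the protease Bmp1 each had a promoter peak. Grem1, a secreted BMP antagonist, had the highest, 10.4, with 78 treatment reads and 17 input reads at chr2:113757001-113759500, 398 bp downstream in the intron of the gene. Nog (9.13), Fst (7.69) and Chrd (7.06) encode the antagonists noggin, follistatin and chordin, of which follistatin binds activins. The Nog peak was the longest of the members, 5800 bp, and covered the whole gene. The Chrd peak also covered the TSS of Thpo, which starts beside it. Bmp1, the tolloid-type protease that cleaves chordin, had the lowest promoter value, 3.9, with 32.5 treatment reads and 16 input reads at chr14:70519201-70520900, 210 bp downstream in the 5´ UTR. Its other peak, 11.8 kb downstream in an intron, had the higher enrichment, 7.85.

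Reads were next compared between the members' promoter peaks and all promoter peaks. The 42 member peaks within 5 kb had medians of 63.5 treatment reads and 17.4 input reads, against 52.6 and 17 over the 10698 promoter peaks of the list. They were also longer, with a median of 2300 bp against 1950 bp. Per kb of peak, the treatment reads were close, 26.1 against 26.8, and the input reads were 7.31 against 8.33. The higher read numbers of the member promoters thus went with longer peaks. The peak centre was downstream of the TSS in 33 of the 42, or 78.6%, against 74.8% of all promoter peaks, and 38 of the 42 covered a TSS of their own gene, or 90.5%, against 89.8% of the 10143 promoter peaks assigned to protein-coding genes. The TSS of another gene was covered by 5 of the 42, or 11.9%, against 13.3%, so that both shares were close to those of all such peaks. The 5 were the peaks of Acvr1 (Upp2), Smad4, Smad7, Id4 (A330033J07Rik) and Chrd.

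**Figure D3:**
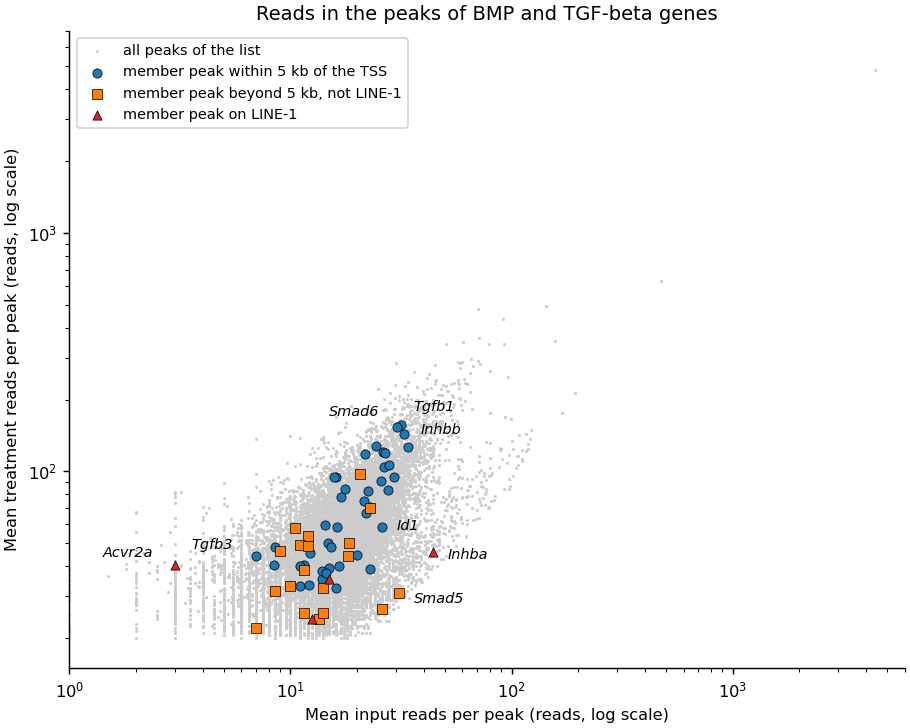
Mean treatment reads against mean input reads per peak (reads, both axes on a log scale) for all peaks of the list (grey) and for the 65 member peaks, by distance to the TSS and LINE-1 overlap; the 7 peaks of the list with 0 input reads are not drawn. Tgfb1, Smad6 and Inhbb had the most treatment reads of the members, 156, 153 and 143, and the Acvr2a peak on LINE-1 had 3 input reads.

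Peaks farther than 5 kb from the TSS numbered 23 and belonged to 14 members. By the reference gene models, 7 were inside the gene, 6 upstream and 10 past its end. These placements were not counted over all distal peaks, so they are not a comparison. Downstream of the TSS lay 17 of the 23, or 73.9%, against 57.8% of all distal peaks. Farther than 100 kb from the TSS lay 6, a number also not counted over all distal peaks. Distances of this size say only which TSS was nearest, and no link between such a peak and the gene was measured. The median enrichment of the 23 was 6.4, against 6 over all 6737 distal peaks. An enrichment of 10 or more was reached by 4 of the 23, which were assigned to Acvr2a, Smad7, Smad6 and Smad5. The share of all distal peaks that reached it was not counted, so this number is not a comparison. The Acvr2a peak, chr2:47669001-47670400, had the highest enrichment of any member peak, 30.6, from 40.6 treatment reads and 3 input reads, but was 1144 kb upstream and on a LINE-1 element. LINE-1 elements, mobile repeats present in many copies, were under 4 of the 23 distal member peaks, or 17.4%, against 36.4% of all distal peaks, and under 0 of the 42 promoter peaks, against 0.299% of all promoter peaks. The 3 others were Inhba peaks at 235 and 398 kb, with enrichments of 3.85 and 2.55, and a Bmpr1a peak in intron 2 of 12 with 5.38. Another Acvr2a peak, 451 kb upstream on a B1 element, had 2.25. Inhba also had a peak off repeats at 86.2 kb with an enrichment of 9.19, and Inhbb had one at 165 kb with 6.55. The remaining distal peaks were those of Acvr2b in intron 1 at 5.65 kb (5.49) and of Smad3 at 107 kb upstream (4.3), with the others of Smad6 at 94.3 kb (8.55) and of Smad7 at 24.4 kb upstream (6.62).

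**Figure D4:**
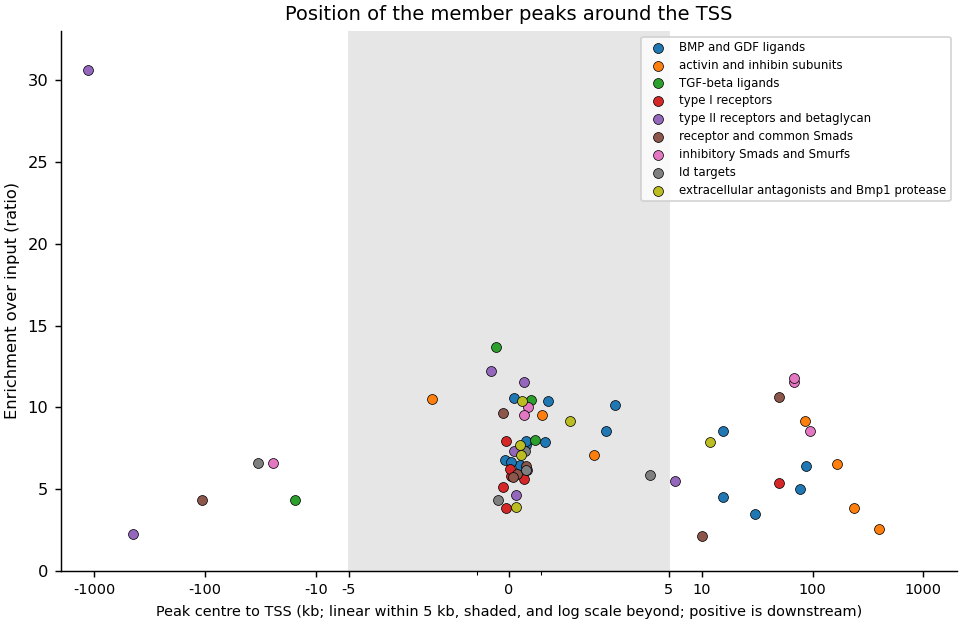
Enrichment over input (ratio) of the 65 member peaks against the distance of the peak centre to the TSS (kb; linear within 5 kb, shaded, log scale beyond; positive is downstream), coloured by role. Within 5 kb lie 42 of 65 points (64.6%, against 61.4% of all peaks), and the highest point, 30.6, is the Acvr2a peak on LINE-1 at 1144 kb upstream.

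Assignment to the nearest TSS also left out peaks that lay over a member. For 6 members a peak centre was in the gene or within 5 kb of it and was assigned to another gene. This was the case for Bmp6, Bmp8a, Bmp8b, Inha, Acvr2b and Smurf1, and the share of all genes with such a peak was not counted. Among the 6 members only Smurf1 had no assigned peak of its own. With it, 42 members had a peak in or near the gene, whether assigned to them or not, against 57.3% of all genes. In Bmp8a and Bmp8b, peaks with enrichments of 8.34 and 8.33 lay in intron 3 of 6 of each gene, 729 and 377 bp from the TSS of Oxct2a and Oxct2b. A weaker peak in intron 4 of Bmp8a, with an enrichment of 3.15, was also assigned to Oxct2a, 7229 bp from its TSS. In Acvr2b a broad peak with 112 treatment reads in intron 1 was assigned to Exog, and another, with an enrichment of 7.61, lay past the end of Acvr2b, 27 bp from the TSS of Exog. In Bmp6 a peak with an enrichment of 4.9 lay over coding exon 4 of 7, 140.1 kb from the start of the gene, and was assigned to Txndc5.

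CpG content, which the choice of members did not use, was measured as CpG observed over expected in the 1 kb centred on the TSS. Its median was 0.736 for the 49 members and 0.575 for all protein-coding genes, and 34 of 49 members (69.4%) were CpG-rich, at 0.6 or more, against 47.5% of all genes. Among CpG-rich genes, 30 of 34 members had a promoter peak, against 71.7% of all CpG-rich genes. Among CpG-poor genes, 10 of 15 members had one, against 21.0%. Of these 10, all but Inha, Gdf5 and Bmpr1b were between 0.483 (Acvrl1) and 0.597 (Id1), where the limit was 0.6. Members with a promoter peak had a median of 0.758, and those without had 0.520, where all genes had 0.737 and 0.299. With a promoter of 1 kb the medians were 0.752 and 0.598, so that the difference between members with and without a peak was 0.155 in place of 0.239, while that of all genes was 0.438 at both distances. The members without a promoter peak fell on both sides, with Smurf1 (0.993), Smad5 (0.973), Smurf2 (0.920) and Id2 (0.658) CpG-rich, and Tgfbr1 (0.520), Bmp4 (0.443), Gdf3 (0.366), Smad2 (0.308) and Bmp5 (0.264) CpG-poor. For genes with several starts, such as Smad2, Tgfbr1, Acvr1 and Acvr1c, the value is the median over the starts. The 2 starts of Tgfbr1 were unlike, with 29 and 3 CpG dinucleotides in the 250 bases before them. Its value, 0.520, is also the median of the members without a promoter peak, so that median depends on how these starts are combined. At the other end Inha (0.267) and Gdf5 (0.320) had a promoter peak and a low CpG content at the TSS. Bmpr1b had 0.352 as the median over 4 starts, of which 1 lay under its promoter peak, and the peak itself had 0.680.

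**Figure D5:**
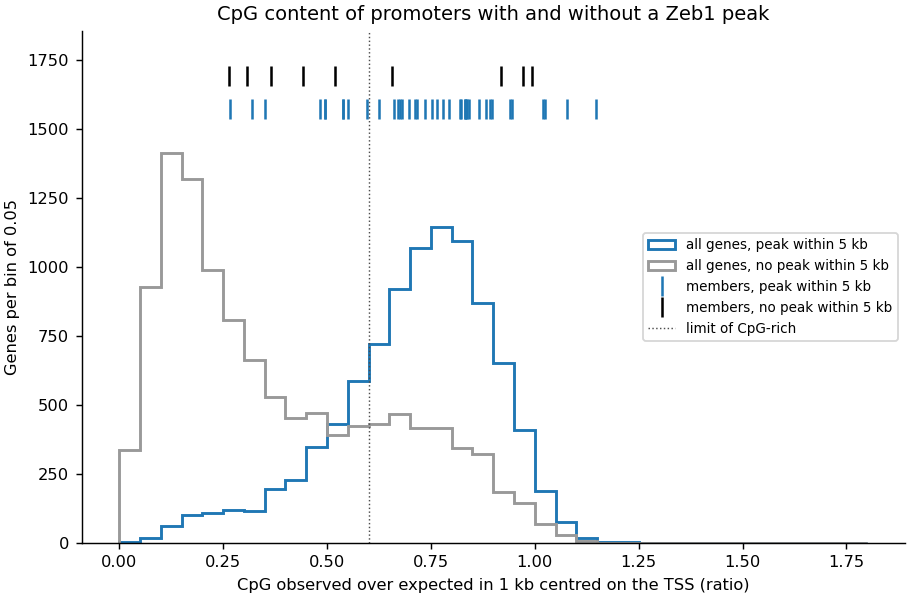
CpG observed over expected in the 1 kb centred on the TSS (ratio) for all protein-coding genes with (blue line) and without (grey line) a peak within 5 kb, in bins of 0.05, with 1 tick for each member above (blue with, black without a promoter peak). The 9 black ticks lie on both sides of the limit of 0.6, with 4 members above it and 5 below.

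The rest of the pathway was described from a list of 73 further genes. Of these, 49 had a promoter peak, or 67.1%, against 45.1% of all protein-coding genes, and 52 had an assigned peak, against 53.3%. Their best promoter peaks had a median enrichment of 7.7, close to that of the members. All 7 of the other BMP targets had a promoter peak, among them Msx1, Hey1 and Gata2, while the 3 of 8 other receptors and co-receptors and the 7 of 15 other ligands with one were near the share of all genes. The highest enrichment was that of Foxh1, the DNA-binding partner of Smad2, with 16.7 from 40.4 treatment reads and 4.8 input reads at 2898 bp downstream. Lefty2, an antagonist of Nodal, had 12.0, Map3k7, the kinase Tak1, had 11.5, and Usp9x and Ep300, a deubiquitinase and an acetyltransferase that act on or with Smads, both had 10.9. Nodal itself had 9.29, and its co-receptors Tdgf1 and Cfc1 had no assigned peak. Zeb1 had 2 assigned peaks, neither within 5 kb of its TSS, and Zeb2 had a promoter enrichment of 8.05.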

How the data were processed

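Zeb1 ChIP-seq of D3 mESC in GS was taken from the deposited list of unified peaks. The authors aligned the reads to mm10 with STAR 2.4.2a, removed duplicates with Picard 1.136 and annotated peaks with HOMER 4.7, tools named with FastQC 0.11.2 in the submitters' processing notes. Peaks called in at least 2 of 3 ChIP libraries were unified and averaged by the authors. The read columns are a signal, the mean reads per peak as the authors averaged them. Enrichment is a ratio over input that the authors scaled for mapped reads. The deposited p-value was 0 for all 17435 peaks and was not used. Limits of the list include a lowest signal of 20 treatment reads and a lowest ratio of 2, as deposited.

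Members and lists were chosen with earlier results of these data known. Peaks were counted by deposited gene symbol and distance, whose sign was read as positive downstream, against the legend of the deposited list. Of 17165 peaks whose transcript was in the reference, the distance matched within 2 bp as downstream in 14120 and as upstream in 6. All genes are the 21000 protein-coding genes with curated transcripts in GRCm38.p6, matched to the list by gene ID or symbol. Genes were named by role, as the highest and lowest best promoter peak in each, with the 4 highest and 4 lowest of all members, the 3 peaks with most reads, the members with most peaks, the Id genes and the 5 highest of the 73 further genes. Other genes to which peaks in or near members were assigned, or whose TSS a member peak covered, were named after their values were seen, as were Nodal, Tdgf1, Cfc1, Msx1, Hey1, Gata2, Zeb1 and Zeb2, and the searches for GGCGCC and GTCTAGAC were added then. No test was run, as the list has no value per library. After trimming and a filter on read length, the authors drew the same number of reads from each sample, and the mapped reads left per library were not used here. Python 3.11.15, NumPy 2.4.6, pandas 2.3.3, SciPy 1.17.1, pysam 0.24.0 and Matplotlib 3.10.9 were used, with the motif and CpG functions checked on simulated sequence. Alternatives were stricter limits, other distances, other gene assignments and other motif settings.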

Additional observations from a re-analysis of the deposited data

How the results depend on the processing

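The members with an assigned peak numbered 35 to 42 and those with a promoter peak 33 to 40 over the alternatives, which were enrichment of at least 5, at least 40 treatment reads, peaks off repeats, peaks closer than 1 kb merged, other distances, starts of the reference and peaks in or near the gene, all within 1.5 times the counts of 41 and 40. Over the same alternatives all genes with an assigned peak numbered 8640 to 12024 and those with a promoter peak 7521 to 11017, of 21000. The peaks assigned to members numbered 45 to 64, against 65, where all peaks numbered 11404 to 16786, against 17435. Chosen after seeing the data, promoter peaks that cover no TSS of another gene left 35 of 40 members, against 8179 of 9465 of all genes. Enrichment of at least 5, also chosen then, left 40 of 49 further genes with a promoter peak, against 7777 of 9465 of all genes. The gene body alone, chosen then too, left 5 of 6 members with a peak assigned elsewhere, and the number over all genes was not counted. The median of the best promoter peak was 7.06 within 1 kb, where all genes had 6.76, and 27.1 treatment reads per kb in place of enrichment, where all genes had 27.4, so that members were not above all genes on that scale. The motif was in 43.1% of member peaks on the forward strand only and in 12.3% in the 200 bp at the peak centre, where fewer bases are searched, against 54.4 and 16.8% of all peaks, and in 69.2% with the core CACCTG and 71.4% within 5 kb of the TSS, against 82.1 and 76.8%. The difference in median CpG observed over expected between members with and without a promoter peak was 0.155 with a peak within 1 kb and 0.239 within 5 kb. No paired analysis was possible because the list has no value per library, and for the same reason no replicate was left out.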
